A study of Mus musculus with 51 samples.

Results

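Lrp2, Cubn, Dab2, Amn and Clcn5 encode the receptors and partners with which the proximal tubule of the kidney takes up filtered protein. They were chosen by name, as the rows of these 5 genes, and all 5 were found among the 16099 genes of the deposited expression table and passed the filter on low values. RNA-seq of poly-A RNA was run on kidneys of mouse fetuses of the strain C57BL/6, labelled WT, taken at intervals of 4 h for 48 h. The 51 libraries fall into 13 time points, named CT0 to CT48 after the hours of the series, with 4 libraries each, except for CT20 with 3. The libraries of CT0 to CT20 are labelled embryonic day 18, those of CT24 to CT44 embryonic day 19 and those of CT48 embryonic day 20. No treatment or mutation is labelled, and the labels call the libraries of a time point biological replicates without naming dams, so p-values measure the spread between these libraries, some of which may share a litter.

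Megalin, the product of Lrp2, is a very large receptor of the LDL receptor family at the brush border, where it binds albumin, hormones, and vitamins in complex with their carrier proteins. Cubilin, the product of Cubn, has no membrane-spanning part of its own and reaches the surface with amnionless, the product of Amn. Dab2 is the adaptor that links the tail of megalin to clathrin-coated pits, and Clcn5 encodes the chloride/proton exchanger ClC-5 of the early endosome, whose loss in humans causes Dent disease, with low-molecular-weight proteinuria.

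In the GENCODE M21 annotation of GRCm38, each is a protein-coding gene. Lrp2 (ENSMUSG00000027070.14) lies at chr2:69424340-69586065 on the minus strand and Cubn (ENSMUSG00000026726.10) at chr2:13276338-13491813 on the minus strand. Dab2 (ENSMUSG00000022150.16) lies at chr15:6299788-6440712 on the plus strand, Amn (ENSMUSG00000021278.7) at chr12:111271095-111276426 on the plus strand and Clcn5 (ENSMUSG00000004317.14) at chrX:7153810-7319358 on the minus strand. Their exons cover 16701 bases for Lrp2, 14935 for Cubn, 7342 for Dab2, 1843 for Amn and 11452 for Clcn5, so the anchor Amn is the one short gene of the set. The annotation places noncoding genes on the opposite strand that overlap Cubn, Dab2 and Clcn5, and 5 miRNA genes within Clcn5 on its own strand. None of these has a row in the table, and the sources used here do not say whether strand was used in counting.

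The start regions of the receptor pair and of the cubilin anchor are shown because Lrp2 and Cubn had similar time courses while that of Amn differed in the second part of the series. Each runs from 250 bases before to 50 bases after a transcription start in RefSeq, build GRCm38.p6, and capitals mark matches to a searched motif. The window of Lrp2 is chr2:69585980-69586279 on the minus strand, that of Cubn chr2:13491827-13492126 on the minus strand and that of Amn chr12:111270846-111271145 on the plus strand.
Lrp2: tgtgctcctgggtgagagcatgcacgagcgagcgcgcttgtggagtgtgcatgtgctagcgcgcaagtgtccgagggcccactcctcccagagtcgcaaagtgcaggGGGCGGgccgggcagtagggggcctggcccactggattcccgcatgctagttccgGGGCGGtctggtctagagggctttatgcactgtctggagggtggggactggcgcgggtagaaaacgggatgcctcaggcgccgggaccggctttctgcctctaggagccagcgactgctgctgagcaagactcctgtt
Cubn: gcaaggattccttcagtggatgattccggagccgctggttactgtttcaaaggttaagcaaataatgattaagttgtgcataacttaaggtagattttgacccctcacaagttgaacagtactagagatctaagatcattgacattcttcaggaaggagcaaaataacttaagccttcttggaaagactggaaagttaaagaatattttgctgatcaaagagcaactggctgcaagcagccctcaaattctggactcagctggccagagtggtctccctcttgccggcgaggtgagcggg
Amn: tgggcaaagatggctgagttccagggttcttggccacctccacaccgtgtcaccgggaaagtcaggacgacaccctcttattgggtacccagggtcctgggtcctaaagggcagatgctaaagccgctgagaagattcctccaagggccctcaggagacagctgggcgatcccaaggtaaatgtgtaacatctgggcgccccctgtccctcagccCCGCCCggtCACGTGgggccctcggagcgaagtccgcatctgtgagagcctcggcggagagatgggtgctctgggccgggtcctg

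The windows of the receptor pair differed in composition, with a GC content of 65% in Lrp2, 44.3% in Cubn and 62.3% in Amn. On both strands 5 motifs were searched, an E-box of the clock type (CACGTG), an HNF1 half-site (GTTAAT), an HNF4 site (CAAAGTCCA), a GC box (GGGCGG) and a TATA box (TATAAA). The matches found in these windows do not overlap one another. The Lrp2 window held 2 GC boxes, whose first bases lie at -143 and -88 from the start. The Amn window held a GC box on the other strand at -35 and an E-box at -26, and the Cubn window held none of the 5. Of all 32851 mouse windows of that length, 35.7% held the GC box, 7.15% the E-box, 7.10% the HNF1 half-site, 0.475% the HNF4 site and 13.6% the TATA box. Dab2 and Clcn5 have 2 windows each in the table, and these held an HNF1 half-site for Dab2 and a TATA box and a GC box for Clcn5. A match describes the letters of the window and says nothing on binding.

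Totals of the deposited values lay between 34226024 and 35711911 per library, because the values had been normalised and then rounded, and the sequencing depth behind them is unknown. The values fall into a first stretch, CT0 to CT24 (27 libraries), and a second stretch, CT28 to CT48 (24 libraries), in which gene means are nearly equal. The log2 difference between the means of the stretches had a standard deviation of 0.0171 over 12274 genes, and for the 5 genes it lay between -0.017 and 0.0028. Levels are therefore not compared across CT24 and CT28. The median standard deviation within time points, on the log2 scale, was 0.136 in the second stretch and 0.0748 in the first. All 25 proximal tubule markers had a mean of 10 or more, and their summed value was 185782 to 282872 per library. No gene of the marker lists was at 0 in every library.

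Lrp2 was among the genes with the highest deposited values in the fetal kidney, though its exons are also the longest of the 5. Clcn5 had the lowest value of the 5 per kb of exon. No ranking of all genes per kb was made. By mean deposited value over all libraries Lrp2 ranked 35 of 16099 genes, Dab2 ranked 415, Cubn 462, Clcn5 2813 and Amn 3687. Per kb of exon, the mean deposited value in CT0 to CT24 was 2562 for Lrp2, 1529 for Dab2, 1416 for Amn, 712 for Cubn and 287 for Clcn5. Per kb, the anchor Amn was thus above its partner Cubn, by a ratio whose time-point means lay between 1.72 at CT48 and 2.35 at CT28. Amn and Cubn differ widely in exon length, and differences between CT48 and CT28 ran with length, as described below. The part of length in this ratio was not tested. The time-point means of Cubn relative to Lrp2, per kb, lay between 0.251 at CT44 and 0.301 at CT28. Single libraries had 0.230, at CT44, to 0.325, at CT28. Because gene means are nearly equal in the stretches, this ratio is not compared across them either.

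**Figure D1:**
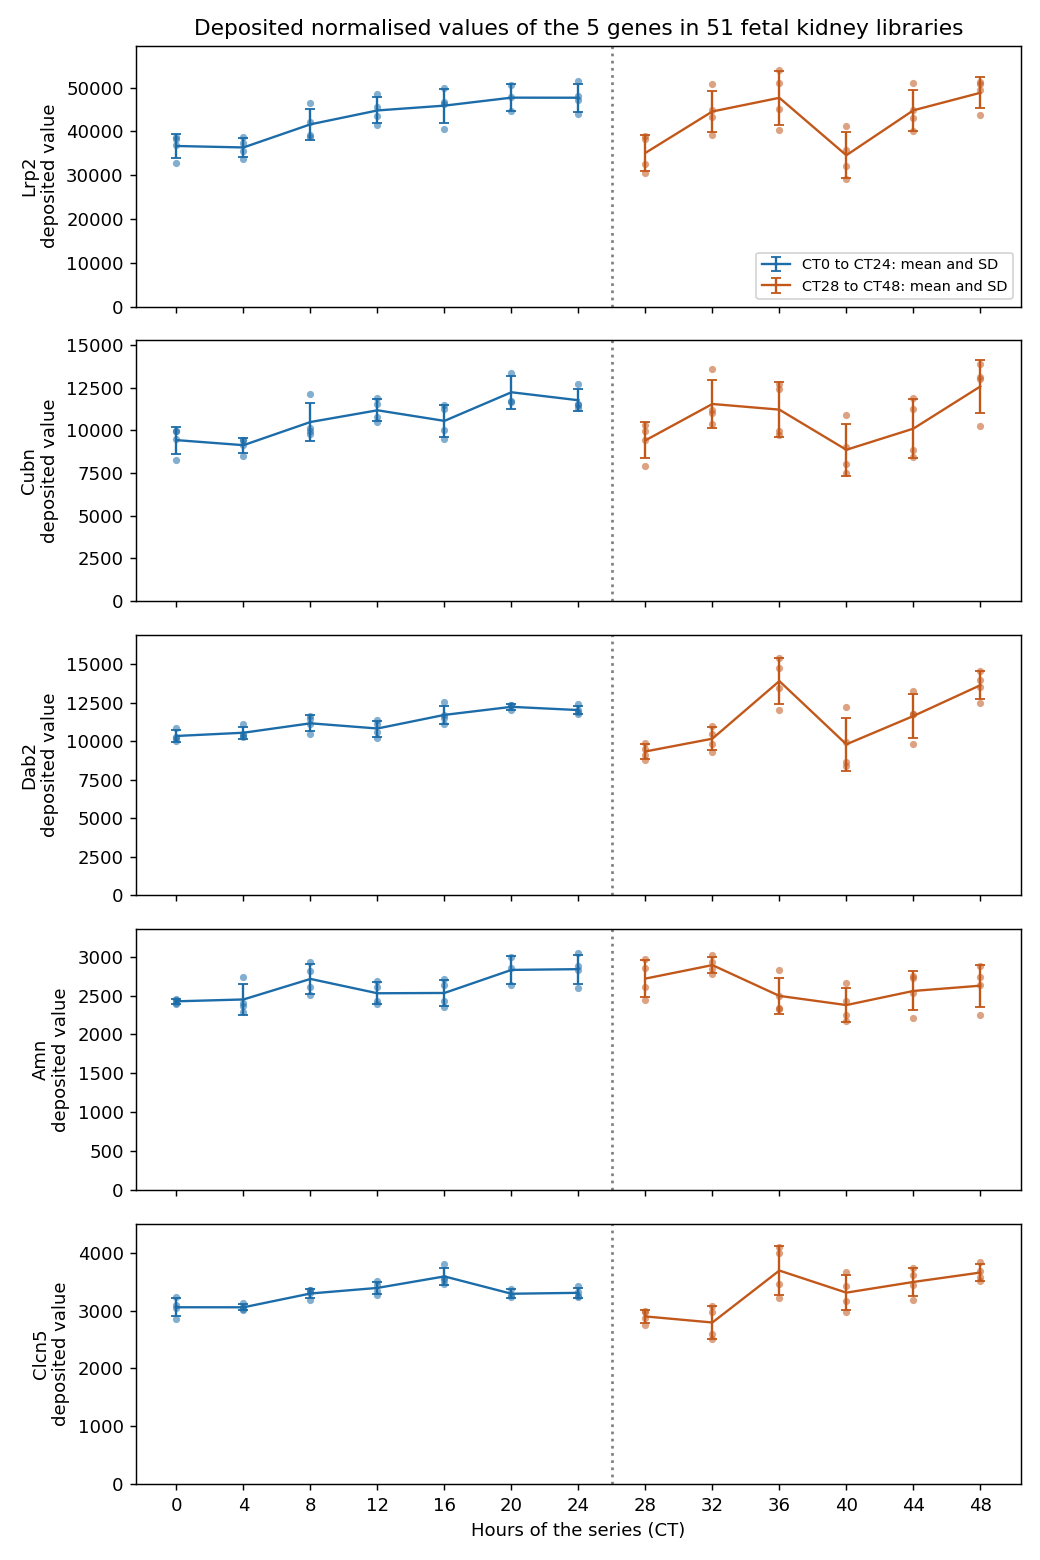
Deposited normalised value (vertical axis, from 0) of each of the 5 genes against hours of the series. Points are the 51 libraries, lines and bars are time-point means and SD, and the dotted line separates CT0 to CT24 from CT28 to CT48, whose levels are not compared. All 5 genes are higher at CT24 than at CT0, Lrp2 and Dab2 are lower at CT40 than at CT36, and Amn libraries lie between 2178 and 3049 throughout.

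Within the first stretch the order of the time points was close to the order of age for the receptors. Lrp2 was lowest at CT4 and CT0, with means of 36337 ± 2201 and 36669 ± 2725 (SD, n = 4 each), which overlapped. It was next at CT8 (41622 ± 3525, SD, n = 4). The lowest CT8 library (38758) lay just above the highest of CT0 (38718) but below the highest of CT4 (38793). For CT8 against CT0 the share of all genes that lay apart was not counted. The means then climbed from CT12 (44792) through CT16 (45892) to CT20 and CT24. At CT20 it was 47716 ± 3053 (SD, n = 3) and at CT24 47697 ± 3178 (SD, n = 4), and from CT8 upwards each neighbour in this order overlapped the next.

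Cubn had its lowest mean at CT4 (9136 ± 441, SD, n = 4), stood lower at CT16 (10560 ± 950, SD, n = 4) than at CT12 (11182 ± 655, SD, n = 4) and had its highest mean at CT20 (12240 ± 972, SD, n = 3). Dab2 was lowest at CT0 (10342 ± 375, SD, n = 4) and highest at CT20 (12233 ± 178, SD, n = 3). Amn was lowest at CT0 (2426 ± 29.3, SD, n = 4) and highest at CT24 (2840 ± 185, SD, n = 4). For these 3 genes every time point overlapped its neighbour in the order of means. Clcn5 had another shape: its mean was highest at CT16 (3591 ± 144, SD, n = 4), above CT24 (3307 ± 84.5, SD, n = 4) and CT20 (3292 ± 79.4, SD, n = 3). Its libraries at CT4 and CT0 lay below those of CT20, the next time point in order, but only just. The highest CT0 library had 3228 and the lowest CT20 library 3229. Those of CT8 reached down to 3175 and overlapped those of CT0, and the later neighbours overlapped. For CT20 against CT0 the share of all genes that lay apart was not counted.

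In the second stretch the order of the means did not follow age. Lrp2 was lowest at CT40 (34552 ± 5206) and CT28 (35088 ± 4159, SD, n = 4 each), which overlapped. Next was CT32 (44557 ± 4770, SD, n = 4). The lowest CT32 library (39264) lay just above the highest of CT28 (39035) but below the highest of CT40 (41271). For CT32 against CT28 the share of all genes that lay apart was not counted. Above CT32 came CT44, CT36 and CT48 (48826 ± 3508, SD, n = 4), each overlapping its neighbour. Cubn ran from CT40 (8865 ± 1521) and CT28 up to CT48 (12580 ± 1580, SD, n = 4 each), and Amn from CT40 (2378 ± 216, SD, n = 4) up to CT32, at 2892, with 2776 to 3019 in its libraries. Dab2 was lowest at CT28 (9337 ± 473) and highest at CT36 (13905 ± 1487), and Clcn5 was lowest at CT32 (2795 ± 283) and highest at CT36 (3692 ± 422, SD, n = 4 each). In these 4 genes each time point overlapped the next in the order of means.

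All 5 genes were higher at CT24 (embryonic day 19) than at CT0 (embryonic day 18), the same hour of the day. The receptors changed most and the endosomal exchanger least, and in each gene every CT24 library lay above every CT0 library. In limma, fitted to the 27 libraries of the stretch, 5 of 5 genes passed at an adjusted p under 0.05, against 14.3% of the 14426 genes tested that passed as higher. Their median log2 difference was 0.22, and that of all genes tested was 0.0011. Groups lay wholly above those of CT0 in 14.8% of genes tested.

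For the receptor Lrp2 the CT24 libraries had 47218, 51602, 48100 and 43868, and the CT0 libraries 38718, 38369, 32774 and 36815. The log2 difference was 0.38 ± 0.07 (SE, limma adjusted p = 0.000165), and the groups lay well apart. Its co-receptor Cubn had 11325, 12734, 11473 and 11554 at CT24 and 9988, 9506, 8290 and 9947 at CT0. These groups did not overlap either, and the log2 difference was 0.32 ± 0.07 (SE, limma adjusted p = 0.00177).

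The anchor Amn had 2601, 3049, 2824 and 2886 at CT24, and its CT0 libraries stood close together at 2397, 2437, 2462 and 2408. It was 0.22 ± 0.06 higher on the log2 scale (SE, limma adjusted p = 0.00458). The adaptor Dab2 had 11901, 12391, 11800 and 12001 at CT24 and 10881, 10019, 10187 and 10282 at CT0, a log2 difference of 0.22 ± 0.04 (SE, limma adjusted p = 0.000124). Its groups were narrow and well apart. Clcn5 had 3233, 3420, 3253 and 3323 at CT24 and 3046, 3099, 3228 and 2859 at CT0, so the lowest CT24 library stood just above the highest CT0 library. Its log2 difference was 0.11 ± 0.04 (SE, limma adjusted p = 0.0154).

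The difference in Clcn5 did not pass without CT24 replicate 2 (adjusted p = 0.0636) or CT0 replicate 4 (0.0886). With all 51 libraries in the fit, whose spread is wider, 2 of 5 passed (Lrp2 and Amn), and Cubn (adjusted p = 0.0614), Dab2 (0.059) and Clcn5 (0.256) did not.

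A straight line through CT0 to CT24 rose for all 5 genes as well, and 12.9% of genes tested had a line that passed as rising. The log2 slope per 24 h was 0.44 ± 0.06 for Lrp2 (SE, limma adjusted p = 1.33e-06), 0.38 ± 0.06 for Cubn (5.96e-05) and 0.24 ± 0.03 for Dab2 (3.97e-06). It was 0.21 ± 0.05 for Amn (adjusted p = 0.00374) and 0.15 ± 0.04 for Clcn5 (0.00733). Fitted to the 7 time-point means alone, Lrp2, Cubn and Dab2 passed and Amn (adjusted p = 0.0633) and Clcn5 (0.218) did not. With all 51 libraries in the fit Lrp2 and Cubn passed, and Dab2 (adjusted p = 0.124), Amn (0.0557) and Clcn5 (0.171) did not. With an estimated correlation within time points the line of Amn (adjusted p = 0.0503) and of Clcn5 (0.0523) did not pass. Amn also missed the threshold without CT24 (adjusted p = 0.0916), and Clcn5 without CT0 (0.137), CT4 (0.0645) or the replicates numbered 2 (0.0524) or 4 (0.0663).

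Markers of the proximal tubule and of other nephron segments moved with the 5 genes. Of 25 proximal tubule markers 19 were higher at CT24 and none lower, with a median log2 difference of 0.41, which is above that of each of the 5 genes. Their summed value was 251462 to 282872 in the CT24 libraries and 185782 to 204435 in the CT0 libraries. In bulk RNA, more cells of a type and more RNA per cell cannot be told apart. Dab2 is also expressed by macrophages, of whose markers 5 of 7 tested were higher at CT24, with a summed value of 5680 to 6396 at CT24 and 4359 to 5152 at CT0. Their part in the Dab2 result was not tested. Megalin, cubilin, amnionless and Dab2 are also made in the visceral yolk sac. Of 8 liver and yolk sac markers 2 were higher and none lower, with a median log2 difference of 0.68. Their summed value was 10461 to 12413 at CT24 and 8841 to 9496 at CT0. Thick ascending limb and distal tubule markers were higher in 7 of 7 (median 0.66) and collecting duct markers in 7 of 10 (0.28). Nephron progenitor markers were lower in 5 of 6 (-0.26) and cell cycle markers in 8 of 8 (-0.34). The part of these shifts in the results was not tested.

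The 5 genes rose by unequal amounts in the first stretch. The ratio of each gene to Lrp2 was followed along the line, and 8 such slopes were tested by permuting the hours over libraries. This treats the libraries of a time point as independent, and the ratio slopes were not tested with time-point means as the unit. Clcn5 fell behind Lrp2 by 0.29 ± 0.07 on the log2 scale per 24 h (SE, two-sided permutation test, n = 27, adjusted p = 0.00128), Amn by 0.23 ± 0.08 and Dab2 by 0.20 ± 0.07 (permutation adjusted p = 0.0134 for each). The slope of Cubn relative to Lrp2 was -0.06 ± 0.04 (permutation adjusted p = 0.209). Per kb, Clcn5 relative to Lrp2 was 0.101 ± 0.0062 at CT24 and 0.122 ± 0.014 at CT0 (SD, n = 4 each), and Cubn relative to Lrp2 was 0.276 ± 0.013 at CT24 and 0.288 ± 0.011 at CT0. The slope of Amn did not pass without replicates numbered 1 (adjusted p = 0.0688) or 3 (0.0644), and that of Dab2 without those numbered 1 (0.0883), 2 (0.0612) or 3 (0.0644).

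**Figure D2:**
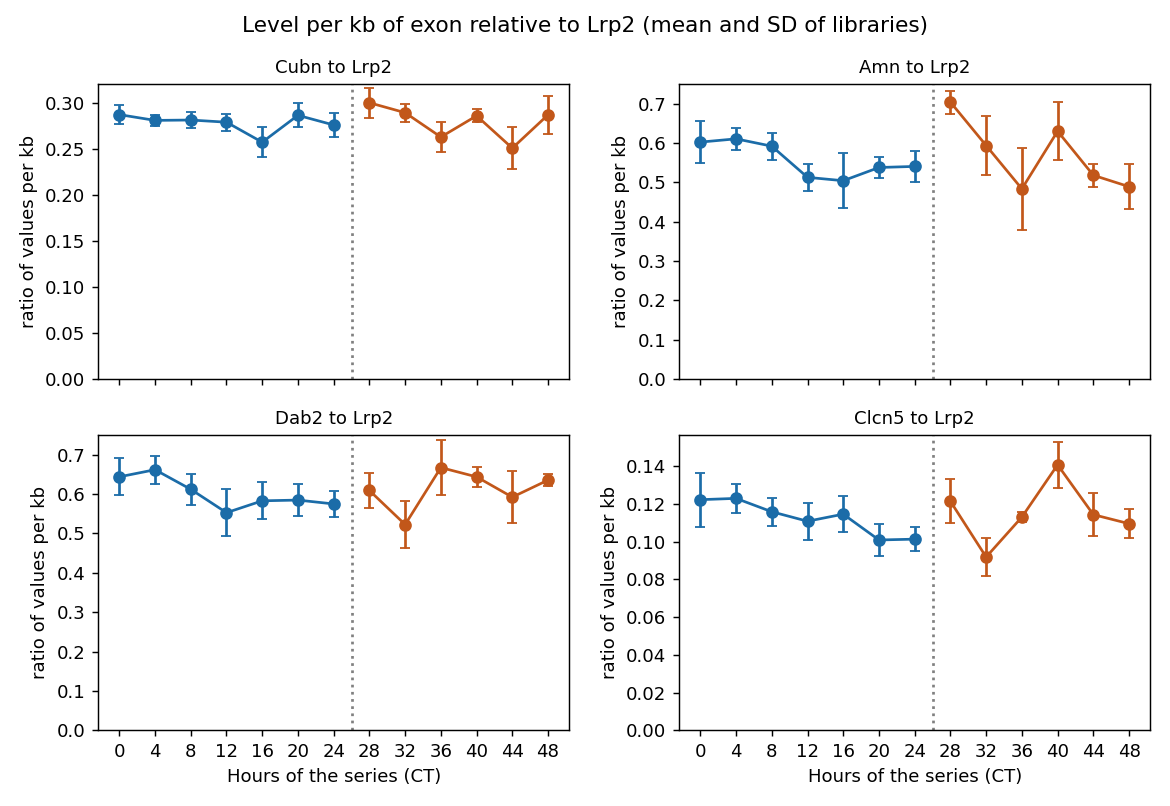
Level per kb of exon of Cubn, Amn, Dab2 and Clcn5 relative to Lrp2 (vertical axes, from 0) against hours of the series, as mean and SD of 3 or 4 libraries. Means of the Cubn ratio lie between 0.251 and 0.301, while the mean Clcn5 ratio is 0.0919 at CT32 and 0.141 at CT40. Ratios are not compared across CT24 and CT28.

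In the second stretch the receptors, the adaptor and the exchanger were again higher at its end, CT48 against CT28, and Amn was not called. In limma, fitted to the 24 libraries of that stretch, 4 of 5 genes passed as higher, against 25.7% of genes tested, and groups lay wholly above those of CT28 in 3323 of 14426 genes tested. The median log2 difference of the 5 was 0.42, and that of all genes tested was -0.013. These time points are 20 h apart and lie at different clock times.

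Dab2 showed the largest difference of the 5, with 13506, 12465, 13984 and 14585 at CT48 and 8813, 9129, 9495 and 9910 at CT28. It was 0.55 ± 0.10 higher on the log2 scale (SE, limma adjusted p = 5.02e-05), and its groups did not overlap. Lrp2 had 49502, 43686, 50859 and 51258 at CT48 and 30565, 32576, 38177 and 39035 at CT28, a log2 difference of 0.48 ± 0.11 (SE, limma adjusted p = 0.000665). Its groups were also apart, as were those of Clcn5, which had 3686, 3583, 3515 and 3847 at CT48 and 2876, 2754, 2998 and 2970 at CT28. The log2 difference of Clcn5 was 0.34 ± 0.08 (SE, limma adjusted p = 0.000501).

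Cubn had 13894, 10284, 13144 and 12996 at CT48 and 7912, 9462, 9987 and 10308 at CT28, so that CT48 replicate 2 fell just below the highest CT28 library. Its log2 difference of 0.42 ± 0.14 passed (SE, limma adjusted p = 0.0162), but not without CT48 replicate 1 (0.0516) or CT28 replicate 1 (0.062). Amn had 2253, 2638, 2879 and 2739 at CT48 and 2438, 2610, 2972 and 2854 at CT28, and these ranges lay across each other. Its log2 difference was -0.05 ± 0.08 (SE, limma adjusted p = 0.624), and without CT48 replicate 1 it was 0.02.

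Differences in the second stretch ran with gene length, which bears on the one short gene of the set. Across all genes tested, the median log2 difference of CT48 against CT28 was -0.27 for exon lengths under 2 kb, -0.09 for 2 to 4 kb, 0.03 for 4 to 8 kb and 0.13 for 8 kb or more. The same medians of CT24 against CT0 were 0.0083, -0.00099, -0.0003 and 0.0042. Relative to the median of its own length class, Amn was 0.22 higher at CT48, above 66.3% of the genes in that class. The same measure was 0.52 for Dab2, 0.35 for Lrp2, 0.28 for Cubn and 0.20 for Clcn5. The part of this length pattern in the results of the second stretch, Amn's among them, was not tested. This description was chosen after the values were seen.

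**Figure D3:**
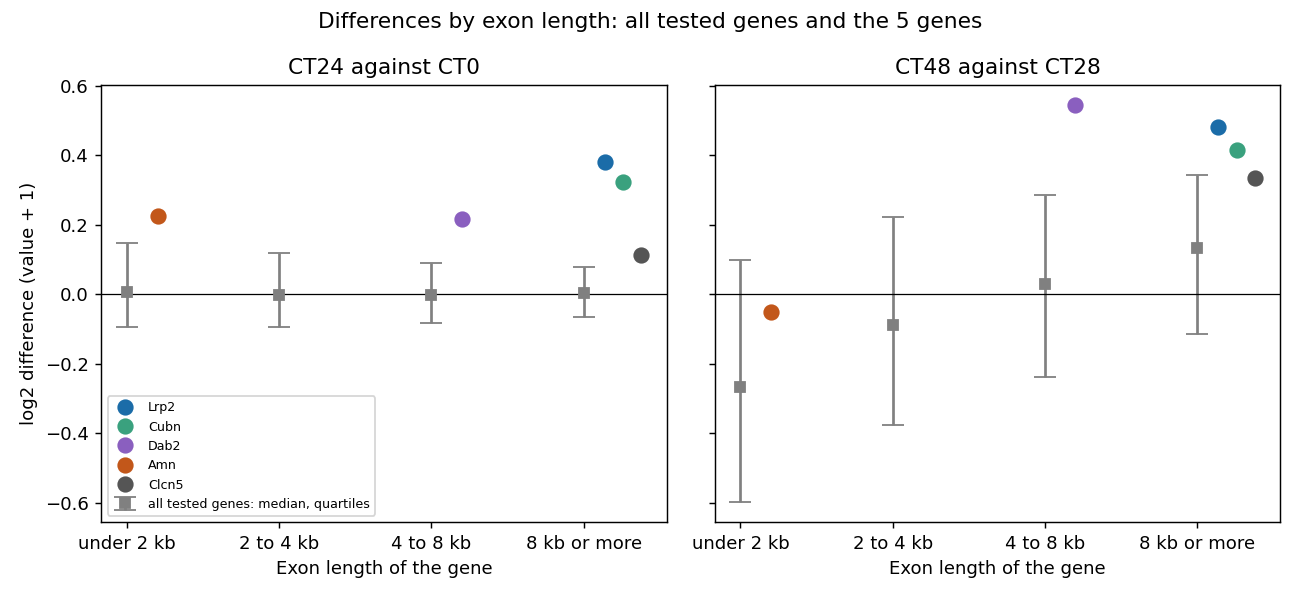
Log2 difference (vertical axis) by exon length class, for CT24 against CT0 (left) and CT48 against CT28 (right). Grey squares and bars are the median and quartiles of all genes tested in the class, and coloured points are the 5 genes. At CT48 the medians run upward with length, from -0.27 to 0.13, and Amn lies at -0.05 in the shortest class.

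Proximal tubule markers were higher at CT48 in 15 of 25 and lower in 2, with a median log2 difference of 0.45. Their summed value was 214892 to 272783 at CT48 and 188850 to 236337 at CT28, and these ranges overlapped. Macrophage markers were higher in 5 of 7, with a summed value of 5653 to 6998 at CT48 and 4320 to 4726 at CT28. Liver and yolk sac markers were higher in 3 of 8 and lower in none (median 0.45). The summed value of that list was 10334 to 12009 at CT48 and 7706 to 9093 at CT28. Thick ascending limb and distal tubule markers were higher in 5 of 7 and lower in 1 (median 0.67), nephron progenitor markers were lower in 4 of 6 and higher in 1 (-0.40), and cell cycle markers were lower in 8 of 8 (-0.73). The part of these shifts in the results for the 5 genes was not tested.

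The change across the second stretch was not a steady one. A line through CT28 to CT48 rose for Clcn5 (0.43 ± 0.10 log2 per 24 h, SE, limma adjusted p = 0.000435) and Dab2 (0.48 ± 0.16, 0.012), 2 of 5 genes, where 28.7% of genes tested had a line that passed as rising. The slope of Lrp2 was 0.34 ± 0.16 (adjusted p = 0.0736), that of Cubn 0.19 ± 0.17 (0.349) and that of Amn -0.15 ± 0.10 (0.187). Without CT28 and CT32 none of the 5 passed in limma, with slopes of 0.11 for Dab2 and 0.04 for Clcn5. Dab2 also missed the threshold without CT48 (adjusted p = 0.215), without CT28 (0.201) and without replicates numbered 3 (0.0599). With time-point means as the unit Dab2 had an adjusted p of 0.124. Lrp2 passed under quantile scaling (0.61, adjusted p = 0.00237), with all 51 libraries (0.0169) and without CT40 (0.00651), CT32 (0.0315), CT36 (0.0449) or the replicates numbered 2 (0.0288).

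At CT36 against CT32 the adaptor and the exchanger were higher, and the receptors were not called. Dab2 had 13436, 14779, 15370 and 12034 at CT36 and 11010, 10492, 9322 and 9838 at CT32, a log2 difference of 0.45 ± 0.10 (SE, limma adjusted p = 0.00108). Clcn5 had 3221, 4093, 3999 and 3455 at CT36 and 3086, 2984, 2508 and 2600 at CT32, a log2 difference of 0.40 ± 0.08 (SE, limma adjusted p = 0.000201). In both genes every CT36 library lay above every CT32 library. They were the 2 of 5 that passed as higher, against 15.7% of genes tested, and groups lay wholly above those of CT32 in 12.7%.

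Lrp2 had 40270, 54118, 51153 and 45170 at CT36 and 43363, 50781, 44820 and 39264 at CT32. Its log2 difference was 0.09 ± 0.11 (SE, limma adjusted p = 0.533), though under quantile scaling it was 0.35 and passed (adjusted p = 0.0142). Cubn had 9973, 12731, 12455 and 9724 at CT36 and 11033, 13621, 11184 and 10371 at CT32, with a difference of -0.05 ± 0.14 (SE, limma adjusted p = 0.833). For both receptors the groups overlapped over most of their range.

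Amn was lower at CT36, with 2828, 2495, 2321 and 2340 against 2842, 2932, 2776 and 3019 at CT32. Its log2 difference of -0.22 ± 0.08 passed narrowly (SE, limma adjusted p = 0.0409), the 1 of 5 that passed as lower, against 19.1% of genes tested. The groups overlapped, and the call was lost in 11 of 18 alternatives, with adjusted p of 0.0511 to 0.191. The median log2 difference of all genes with exons under 2 kb was -0.19 in the same contrast, so Amn lay 0.03 below the median of its class, and whether it changed apart from that shift was not tested.

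At CT36 against CT32 proximal tubule markers were higher in 11 and lower in 4 of 25 (median 0.18), thick ascending limb and distal tubule markers higher in 5 of 7 (0.39) and collecting duct markers higher in 5 of 10 (0.30). Cell cycle markers were lower in 7 of 8 (-0.52). Macrophage markers, which bear on Dab2, were higher in 1 of 7 (0.11). The part of these shifts in the Dab2, Clcn5 and Amn results was not tested.

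**Figure D4:**
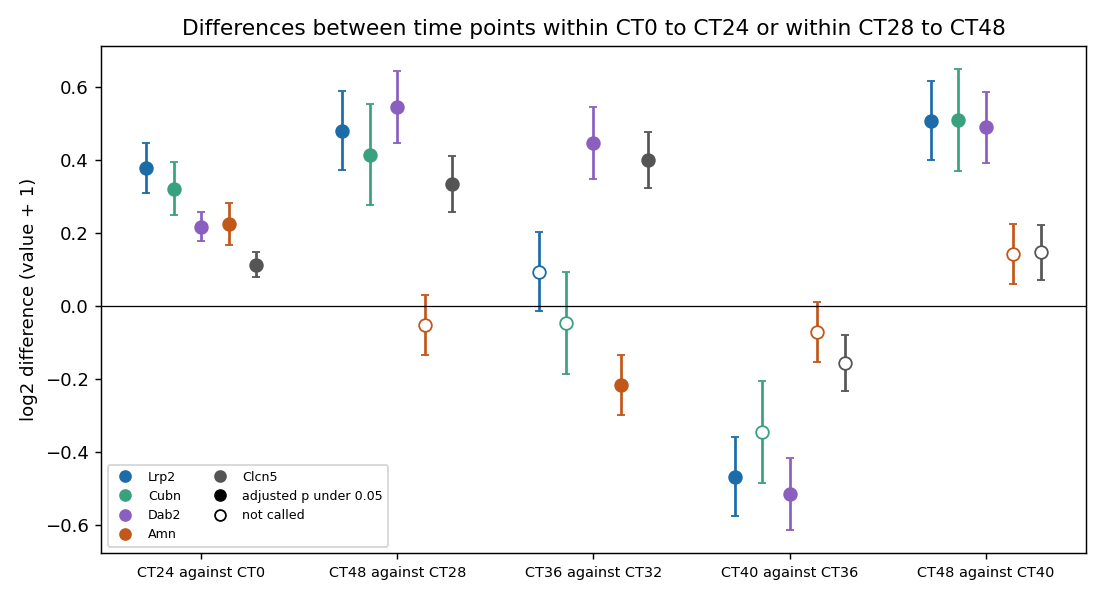
Log2 difference of value + 1 (vertical axis) of the 5 genes in 5 contrasts of a later against an earlier time point. Bars are standard errors and filled points passed at an adjusted p under 0.05 in limma. All 5 genes are above 0 for CT24 against CT0, and Dab2 and Clcn5 stand apart from the others for CT36 against CT32.

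Lrp2 and Dab2 dipped at CT40, midway through the second stretch. These contrasts, CT40 against CT36 and CT48 against CT40, were chosen after the values were seen. Lrp2 had 35689, 29211, 41271 and 32036 at CT40, against the CT36 values given above, and fell by 0.47 ± 0.11 on the log2 scale (SE, limma adjusted p = 0.00464). Dab2 had 9957, 8405, 12200 and 8642 at CT40 and fell by 0.51 ± 0.10 (SE, limma adjusted p = 0.000949). In both genes 3 of the 4 CT40 libraries lay below all CT36 libraries, and CT40 replicate 3 did not. They were the 2 of 5 that passed as lower, and 9.27% of genes tested did. As the contrast was chosen after the values were seen, setting these shares side by side is no test. Cubn had 9026, 7475, 10933 and 8026 at CT40, a log2 difference of -0.34 ± 0.14 (SE, limma adjusted p = 0.0945). The differences of Clcn5 (-0.15 ± 0.08, adjusted p = 0.165) and Amn (-0.07 ± 0.08, adjusted p = 0.603) did not pass. With all 51 libraries in the fit Cubn (adjusted p = 0.0169) and Clcn5 (0.0426) passed.

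By CT48 the receptors and the adaptor were higher again than at CT40. Lrp2 rose by 0.51 ± 0.11 on the log2 scale (SE, limma adjusted p = 0.00359), Cubn by 0.51 ± 0.14 (0.0185) and Dab2 by 0.49 ± 0.10 (0.00219). These were 3 of 5, and 6.50% of genes tested passed as higher. As this contrast too was chosen after the values were seen, the shares are a description and no test. Clcn5 (0.15 ± 0.08, adjusted p = 0.2) and Amn (0.14 ± 0.08, adjusted p = 0.259) did not pass. The groups of Lrp2 and Dab2 did not overlap, and in 6.99% of genes tested all CT48 libraries lay above all CT40 libraries. Cubn lost the call without CT48 replicate 1 (adjusted p = 0.0574) or 3 (0.0538), or CT40 replicate 2 (0.0552) or 4 (0.0673).

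CT40 replicate 3 stood apart in skeletal muscle markers. Their summed value was 411, 321, 2837 and 671 in the CT40 libraries, 469, 377, 428 and 1133 in the CT36 libraries and 351, 265, 442 and 379 in the CT48 libraries. That library was also the highest of CT40 in Lrp2, Cubn, Dab2 and Clcn5, and the dip was larger without it. For CT40 against CT36 the log2 difference was then -0.56 for Lrp2 (limma adjusted p = 0.000875), -0.62 for Dab2 (2.5e-05) and -0.45 for Cubn (0.0282), which passed in this setting. Proximal tubule markers were lower at CT40 in 6 of 25 and higher in none, with a median log2 difference of -0.20, and 6 of 25 were higher at CT48 than at CT40, with a median of 0.32. At CT40 against CT36 thick ascending limb and distal tubule markers were lower in 3 of 7 (median -0.41), podocyte markers lower in 3 of 7 (-0.13), and cell cycle markers higher in 4 and lower in 1 of 8 (0.18). Other CT40 libraries stood apart in other lists. CT40 replicate 1 had a liver and yolk sac sum of 14986, against 9352, 11353 and 9017 in the others. CT40 replicate 2 had an erythroid sum of 1800, against 806, 1052 and 807. The part of these shifts and libraries in the dip was not tested.

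None of the 5 genes followed a 24 h cycle at the threshold. In limma, with a line in each stretch, a step between them and 24 h terms over all 51 libraries, 0 of 5 passed and 2 of 5 had an unadjusted p under 0.05, while 8.36% of genes tested passed. Clcn5 came nearest, with a fitted log2 amplitude of 0.07 ± 0.02 and a peak at 13.7 h (SE, limma adjusted p = 0.0662), and it passed in 5 of 30 alternatives, which were weights by stretch (0.00154), median-of-ratios scaling (0.0431) and leaving out CT28 (0.0333), CT32 (0.0186) or CT40 (0.0182). Amn had 0.08 ± 0.03 (adjusted p = 0.0948), Cubn 0.13 ± 0.05 (0.199), Lrp2 0.10 ± 0.05 (0.256) and Dab2 0.07 ± 0.04 (0.486). Amn passed without replicates numbered 1 (adjusted p = 0.016), Cubn without CT0 (0.0416) and Lrp2 without CT40 (0.0461).

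In the authors' deposited table of rhythm tests, Clcn5 had a combined q-value of 9.23e-07 with a period of 28 h. The authors' deposited table gave combined q-values of 0.153 for Lrp2, 0.145 for Dab2, 0.924 for Cubn and 1 for Amn. Lrp2 and Dab2 also had a period of 28 h there, Cubn 24 h and Amn 20.2 h, while the limma fit set 24 h. In 1 single test of that table, JTK, q was 0.0369 for Dab2, 0.0607 for Lrp2, 0.412 for Cubn and 0.847 for Amn. Of 16099 genes, 6647 (41.3%) had a combined q-value under 0.05 in the authors' deposited table. Whether those tests allow for a trend is not stated.

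In the second stretch only the ratio of Amn to Lrp2 had a slope that passed. Amn relative to Lrp2 fell by 0.49 ± 0.16 on the log2 scale per 24 h (SE, two-sided permutation test, n = 24, adjusted p = 0.0134), and per kb it was 0.489 ± 0.057 at CT48 and 0.704 ± 0.029 at CT28 (SD, n = 4 each). The slopes of Cubn (-0.14 ± 0.08, permutation adjusted p = 0.155), Dab2 (0.14 ± 0.11, 0.269) and Clcn5 (0.09 ± 0.16, 0.574) relative to Lrp2 did not pass. Without CT28 and CT32 the slope of Amn was -0.11 (permutation adjusted p = 0.742), and it also did not pass without replicates numbered 1 (0.103), 3 (0.0516) or 4 (0.074). Amn and Lrp2 lie in the shortest and the longest exon class, whose median slopes were -0.33 and 0.16 per 24 h. These medians differed in the same direction and by about as much as Amn differed from Lrp2. The part of length in this ratio slope was not tested.

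Libraries of the same time point also differed together in the receptor pair. After each library was centred on its time point, Cubn and Lrp2 had Pearson's r of 0.847 in the first stretch (n = 27) and 0.912 in the second (n = 24), with Spearman's rho of 0.813 and 0.888. Over the 8 correlations with Lrp2 the adjusted p was 8e-05 for each r, and 0.00028 and 8e-05 for rho (permutation within time points), and without the 2 libraries farthest from the Lrp2 median r was 0.798 and 0.905. In the second stretch Dab2 (r = 0.714, rho = 0.706, permutation adjusted p = 0.00373 and 0.00411) and Clcn5 (r = 0.671, rho = 0.664, adjusted p = 0.00744 and 0.00768) did so as well, with r of 0.676 and 0.571 without those libraries. In the first stretch r was 0.223 for Dab2 (rho = 0.194) and -0.0387 for Clcn5 (rho = 0.0018), and neither passed (permutation adjusted p of r = 0.402 and 0.872). For Amn r was 0.297 in the first stretch (rho = 0.274) and 0.309 in the second (rho = 0.320), which did not pass (permutation adjusted p of r = 0.254 for each). Without the 2 farthest libraries r was 0.446 and 0.491 for Amn, and in the first stretch 0.0954 for Dab2 and 0.0056 for Clcn5. These correlations were computed after the values had been seen. Values of a library share its scaling and its mix of cells. The share of all genes that would pass the same test with Lrp2 was not computed, so whether these correlations are unusual is unknown.

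The closest relatives of each time course were named by Pearson's r over the 13 time-point means, each centred in its stretch. Counting predicted genes, Cubn was 5th nearest to Lrp2 among 14425 genes (r = 0.918), and Lrp2 was 3rd nearest to Cubn. Beside Cubn, the genes nearest to Lrp2 were Bdh2 (r = 0.949), Itpr1, which encodes an endoplasmic reticulum calcium channel (0.932), Slc12a1, the salt transporter of the thick ascending limb (0.930), Slco1a6 (0.913) and Prepl (0.911). Cubn was nearest to Pls1, which encodes an actin-bundling protein of microvilli (0.969), Osbpl3 (0.936), Ptges (0.916), Kl, which encodes klotho (0.915), and Scpep1 (0.915). Dab2 was nearest to Prkcz (0.989), Xylb (0.984), Acad11 (0.978), the succinate dehydrogenase subunit Sdha (0.974) and Fosb (0.972).

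Amn and Clcn5 had other neighbours. Amn was nearest to Slc34a1, the main phosphate transporter of the proximal tubule (0.927), Tmem176a (0.890), Slc5a9 (0.879), Habp2 (0.876) and the ATP synthase subunit Atp5d (0.867). Clcn5 was nearest to the mitochondrial chaperone Hspa9 (0.961), Coa5 (0.953), Tmem72 (0.952), Ptger1 (0.949) and the heat shock protein Hspa1b (0.946), whose near-identical copy makes its own value uncertain. Between Amn and Clcn5 themselves r was 0.312 over the first stretch, -0.697 over the second and -0.32 over all 13 means. These are descriptions over 13 points that share the trend with age.

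Of the machinery around uptake, most lysosomal genes were higher at CT24, and most coat and endosomal genes were not called. Differences between lists were not tested. At CT24 18 of 23 lysosomal genes were higher than at CT0 and none lower (median log2 difference 0.16, all genes tested 0.0011), led by the protease legumain, Lgmn (0.45), the sialidase Neu1 (0.43) and the protective protein Ctsa (0.30). As background, 14.3% of all genes tested were called higher and 12.2% lower in this contrast. Of 18 chaperone and coat genes 4 were higher (median 0.011), among them the clathrin light chain Cltb (0.18) and Lrpap1 (0.14), the chaperone RAP that escorts megalin through the secretory pathway. Of 22 endosomal and recycling genes 4 were higher and 1 lower (median 0.044), with the sodium/proton exchanger Slc9a3 (0.58), the scaffold Pdzk1 (0.31) and the neonatal Fc receptor Fcgrt (0.23) in front.

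Of 18 proton pump genes, whose products acidify endosomes, 8 were higher (median 0.10), led by Atp6v0a4 (0.31), Atp6v1b1 (0.24) and Atp6v1b2 (0.18). Atp6v0a4 and Atp6v1b1 are also subunits of the pump of intercalated cells. Of 9 genes for vitamin carriers, their receptors and vitamin D enzymes 5 were higher (median 0.35), with the vitamin D hydroxylases Cyp24a1 (1.11) and Cyp27b1 (0.70) and the retinol carrier Rbp4 (0.68), a ligand of megalin. Among relatives of the 5 genes, 3 of 12 other LDL receptor family genes tested were higher and 1 lower (median 0.08), with Sorl1 (0.22), Vldlr (0.20) and Lrp3 (-0.14). Of 7 genes tested for CLC channels and their subunits 4 were higher (median 0.13).

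At CT48 against CT28 the lysosome list again had 18 of 23 higher, with 1 lower (median 0.41), led by Neu1 (0.91), the cathepsin Ctsl (0.87) and the membrane protein Scarb2 (0.74). In this contrast 25.7% of all genes tested were called higher and 28.1% lower. Chaperone and coat genes were higher in 10 and lower in 4 of 18 (median 0.17), among them the small coat subunits Ap2s1 at -0.39 and Clta at -0.38. Endosomal genes were higher in 10 and lower in 4 of 22 (median 0.16), with Slc9a3 at 1.15, Ehd4 at 0.66 and Snx3 at -0.43. Proton pump genes were higher in 8 and lower in 3 of 18 (median 0.078), with Atp6v0a4 at 0.86, Atp6v0d2 at 0.66 and Atp6v0b at -0.50.

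Vitamin genes were higher in 5 and lower in 3 of 9 (median 0.39), with Cyp24a1 at 2.46, Rbp4 at 1.25 and Cyp27b1 at 1.13. LDL receptor family genes were higher in 8 of 12 and lower in none (median 0.31), with Sorl1 at 0.75, Lrp1 at 0.68 and Lrp10 at 0.60. Genes for CLC channels and their subunits were higher in 6 and lower in 1 of 7 (median 0.44), among them Clcn6 at 0.64. The median of all genes tested was -0.013, and the length pattern described above applies to these lists too. Some genes stand in more than 1 list, and Clcn4 had no value here.

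**Figure D5:**
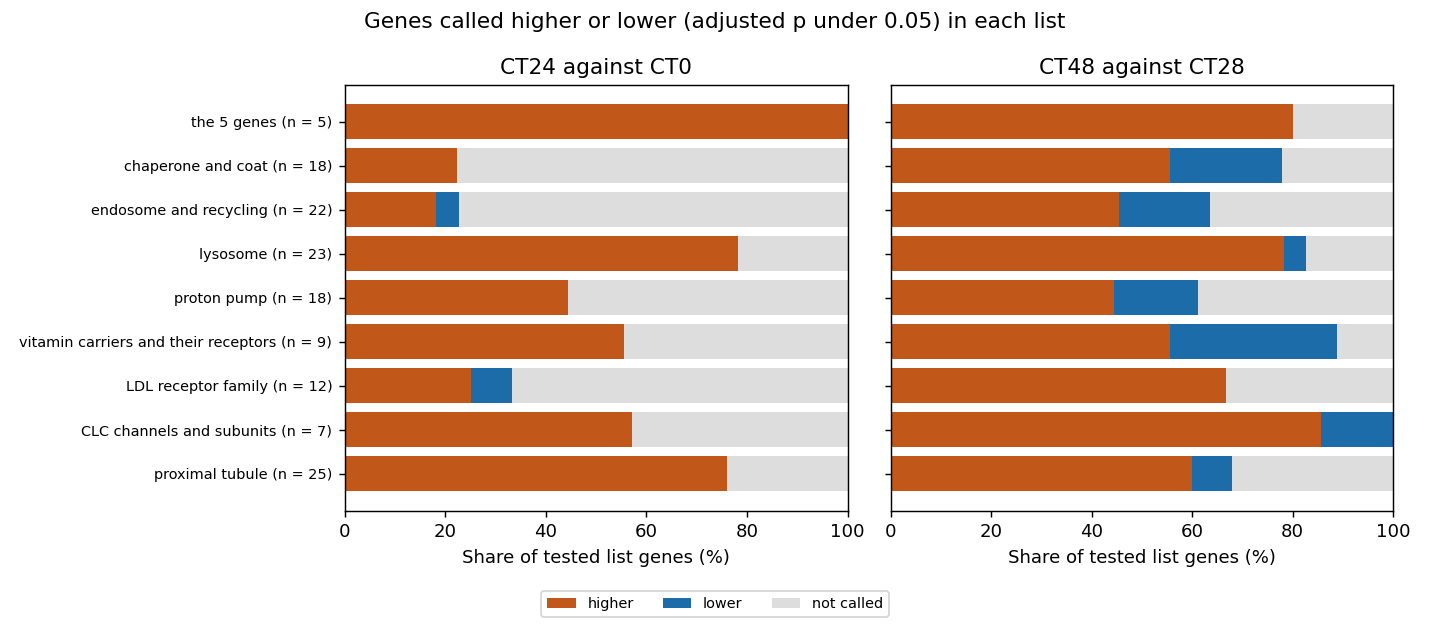
Share of the tested genes of each list (horizontal axis, %) called higher, called lower or not called in limma, for CT24 against CT0 (left) and CT48 against CT28 (right). All 5 genes are higher at CT24, as are 18 of 23 lysosomal genes, against 4 of 18 chaperone and coat genes.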

How the data were processed

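Libraries were grouped by the time in their labels. Per the labels' protocols, Illumina TruSeq libraries were made from poly-A RNA of kidneys kept in RNAlater. The submitters' processing notes name featureCounts 1.5.0-p3, STAR 2.5.2b, bcl2fastq and the build mm10 (GRCm38). How values were normalised is not stated. The authors' deposited table, though its name says counts, holds a score: normalised values rounded to whole numbers, as the nearly equal library totals show. Tests for counts were therefore replaced by limma, and the spread between libraries gives the error. A second table deposited by the authors holds p-values and q-values of rhythm tests, with period, phase and amplitude scores, per the file headers.

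Values were analysed as log2(value + 1) with a minimum gene mean of 10 (14426 of 16099 genes), in limma 3.58.1 in R 4.3.3, with a mean-variance trend, robust moderation and Benjamini-Hochberg adjustment over all genes tested. Contrasts and lines used the libraries of their own stretch, and the rhythm used all 51. Differences on this scale understate changes of low genes. Ratio slopes and correlations used 100000 permutations, with adjustment over 8 tests each. Exon lengths are unions of exons in GENCODE M21, in which 15979 gene symbols of the table were found, and promoters are from RefSeq. All 5 genes matched in both. Fits were checked on simulated data. No 2 libraries were identical.

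The 5 genes and all lists were chosen with earlier results of these data known, so list counts are descriptions. Up to 3 called genes with the largest difference are named per list and contrast, a few of which are not reported here, and for each of the 5 genes its 5 nearest time courses, predicted genes left out. Alternatives were another pseudocount, no filter, 2 other scalings, plain moderation, a replicate block, other sets of libraries in the fit, leaving out each replicate or time point, leaving out the 2 libraries of another ID prefix, and for lines and the rhythm time-point means and an estimated correlation.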

Additional observations from a re-analysis of the deposited data

Results flagged for a closer look

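In Cubn 2 groups held a library far above the others. CT24 replicate 2 had 12734, and the other 3 libraries of CT24 lay between 11325 and 11554. CT8 replicate 2 had 12118, and the other 3 libraries of CT8 lay between 9768 and 10142. The gap to the nearest library was 0.837 and 0.841 of the range of the group. Chance marks about 1 in 20 groups in this way, and 60 groups of the 5 genes were looked at. Without CT24 replicate 2 Cubn was still called higher at CT24 than at CT0.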

How the results depend on the processing

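Over 820 pairs of a gene and an alternative, 755 kept direction and side of the threshold, 40 lost a call, 18 gained one and 7 changed sign. The cause of each change was not tested, beyond fewer libraries or time points where some were left out. With all 51 libraries in the fit, genes called numbered 1443 in place of 3832 for CT24 against CT0 (2 of the 5 genes), 736 in place of 3310 for the line in CT0 to CT24 (2), 4617 in place of 2559 for CT40 against CT36 (4) and 4202 in place of 2004 for CT48 against CT40. With time-point means the line in CT0 to CT24 called 768 genes (3 of the 5), that in CT28 to CT48 5438 in place of 8561 (1), and the rhythm in limma 0 in place of 1206 (866 at an unadjusted p under 0.05). With an estimated correlation the first line called 1292 (3 of the 5) and the rhythm 13. The rhythm called 2837 genes and 1 of the 5 with weights by stretch, and 1 of the 5 with median-of-ratios scaling. Without CT28 and CT32 the second line called 1074 genes and 0 of the 5, its slope for Amn was 0.19, and the ratio slopes to Lrp2 were 0.11 for Cubn, -0.11 for Amn, -0.19 for Dab2 and -0.27 for Clcn5.

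With single replicates or time points left out, the first line called 1300 to 3820 genes, the second line 1 to 3 of the 5, the rhythm 163 to 1545 genes and 0 to 2 of the 5, and CT48 against CT40 1060 to 2331 genes. The ratio slope of Amn to Lrp2 lay from -0.26 to -0.21 in the first stretch and from -0.56 to -0.40 in the second, and that of Dab2 from -0.24 to -0.18 in the first. Among differences that were not called, Cubn in CT36 against CT32 was 0.0015 with quantile scaling and ranged from -0.11 to 0.037 without single replicates, Amn in CT48 against CT28 from -0.10 to 0.021, and the second line of Cubn from -0.12 to 0.33. A replicate block left the calls among the 5 genes as they were (5, 4 and 3 genes in the planned contrasts) and gave 4304 genes for CT24 against CT0. Same-numbered libraries had deviations with a median correlation of 0.035 over 78 pairs in the first stretch (-0.30 to 0.38, 25 over 0.1) and 0.0048 over 60 in the second (4 over 0.1), and 9 of 27 and 9 of 24 libraries correlated best with their own number, so the numbers were not taken to pair libraries. Sets read from the sample codes in the labels, which at CT12 and CT20 differ from the numbers, gave 0.058 over 73 pairs (30 over 0.1) and 0.0042 over 55 (4 over 0.1), with 14 of 26 and 8 of 23. A replicate block by these sets, chosen after seeing the data and fitted with the 2 libraries outside the sets left out, ended the call of Amn in CT36 against CT32 (-0.16, limma adjusted p = 0.191) and no other among the 5 genes. Leaving out those 2 libraries with no block also ended it (adjusted p = 0.127).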
